A study of Mus musculus with 4 samples.

Results

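The effect of 24 h of lipopolysaccharide (LPS) on SVEC cells was read from 2 two-colour arrays that compared RNA of LPS-treated cells directly with RNA of control cells. SVEC is a mouse endothelial line transformed with the SV40 virus, and LPS is the outer-membrane glycolipid of Gram-negative bacteria. On one array, called here the forward array, the LPS RNA carried the red dye Cy5 and the control RNA the green dye Cy3. On the other, the reversed array, the dyes were exchanged. LPS was given in culture at 50 ng/ml, the RNA was amplified before labelling, and the control cells are labelled only as control. The series holds 4 arrays in all, and the other 2 are a dye-reversed pair after 4 h of LPS. The sign of the reversed array was turned, each array was centred on its median, and spots were averaged per gene, which gave 11138 genes with a value at 24 h out of 11138 measured in the series. All values are log2 ratios of LPS over control, in which 1 is a 2-fold higher and -1 a 2-fold lower level with LPS. That LPS is the numerator follows from the dyes and channels in the labels and is likely rather than stated. Nothing in the labels says that the 2 arrays came from separate cultures, so they are taken as 1 RNA pair measured with the dyes exchanged: an SD below is the technical spread between the 2 arrays, and no p-value can be given.

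Endothelial cells sense LPS through Tlr4 with Ly96 and Cd14. One branch of the signal, through Myd88, activates NF-kB and with it adhesion molecules and chemokines. The other branch activates interferon regulatory factors and type I interferon, whose receptor signals through a complex that holds Stat2 and Irf9 to a large set of antiviral genes. The labelled cell type could not be checked against its markers, because the table holds ratios and no signal levels. In RNA from a whole culture, more RNA per cell and a larger share of cells of one kind cannot be told apart.

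Most log2 ratios lay near 0, and the arrays were noisy. Of the 11138 genes, 10180 were read by 2 duplicate spots on each array, hence by 4 measurements, and 958 by more. Across genes the forward and the reversed array correlated at only 0.10 after turning, and duplicate spots on one array at 0.41 (forward) and 0.26 (reversed), over 12092 pairs that share one array and one oligonucleotide. In 543 and 776 of these pairs the duplicates lay more than 2 log2 units apart. Exact ratios of 1 made up 10.8% and 10.1% of the spots. The number of arrays limits the precision of every value here, and agreement between spots is therefore given with the means.

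A gene was called higher or lower when its mean over both arrays reached 2-fold and neither array alone fell short of 1.5-fold in that direction. By this 2-fold rule 187 of 11138 genes (1.68%) were higher after 24 h of LPS and 89 (0.799%) were lower. The same sizes in opposite directions, so that a gene followed the dye and not LPS, were met by 189 genes, 55 brighter in Cy5 (0.494%) and 134 brighter in Cy3 (1.2%). The balance of higher over lower genes depended on what was taken as 0: with each array centred on its ribosomal protein and translation factor genes, which shifted all genes down by 0.26, 87 genes were higher and 272 lower. Each array on its own gave the opposite balance at 2-fold, with 502 genes higher and 818 lower on the forward array against 771 higher and 310 lower on the reversed one. When every spot of a gene on both arrays had to be at least 1.5-fold, 105 genes (0.943%) were higher and 55 (0.494%) lower, against 14 (0.126%) and 42 (0.377%) that followed the dye. With every spot at least 2-fold, 28 genes (0.251%) were higher and 1 (0.00898%) was lower, against 5 (0.0449%) and 10 (0.0898%) for the dye.

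**Figure D1:**
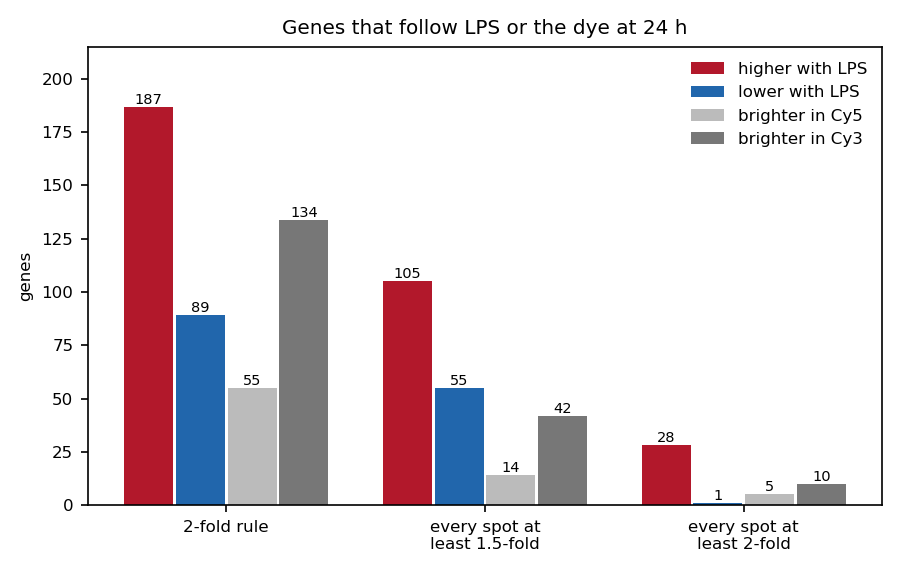
Number of genes (vertical axis) that were higher or lower with LPS on both 24 h arrays, or brighter in Cy5 or in Cy3 on both, under 3 rules of rising strictness. Genes higher with LPS number 187, 105 and 28, while genes that follow Cy3 number 134, 42 and 10.

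The 28 genes with every spot at least 2-fold higher, a rule added after the values were seen, held antiviral, chemotactic, adhesion, acute phase and metal-binding transcripts side by side with genes of no such role. They were Ttpal, Timp1, Gpr165, Mt2, Flicr, Atp6v1c2, Saa3, Thoc3, Ifi47, Il33, Gbp2, Rsad2, Fth1, Ifit3, Ccl2, Pdcd2l, Irgm2, Ifit2, Rab32, Ifi35, Gbp8, Slc22a21, Vcam1, H2-T9, Tnip1, Stat2, Saa-ps and Hspd1, in order of their means. Of these 28, 7 belong to the interferon-induced lists below, which hold 60 of the 11138 genes. Any of the 61 gene lists examined, which hold 1399 genes, took in 17. The lists were chosen with earlier results of these data known. In 23 of the 28 the forward array gave the larger ratio, and the part of the dye in these sizes was not tested. The 1 gene with every spot at least 2-fold lower was Actg2, the smooth muscle gamma actin.

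**Figure D2:**
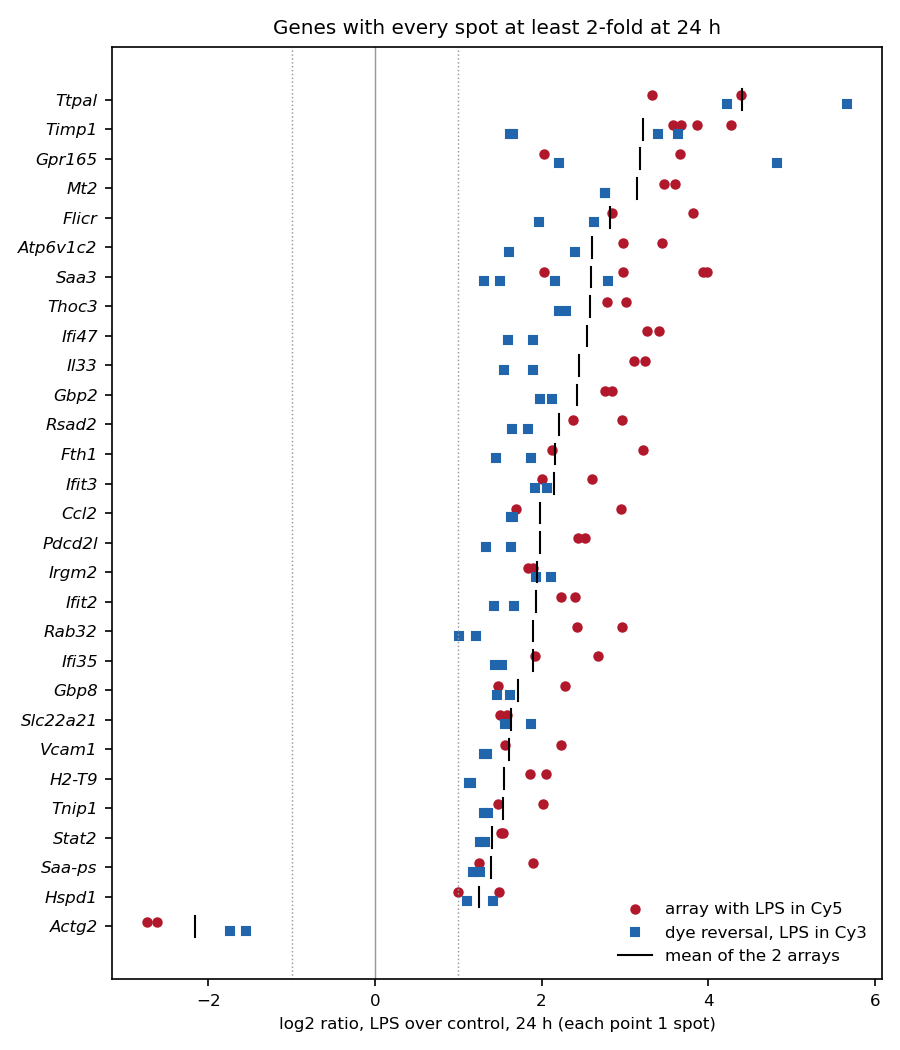
Log2 ratio of LPS over control at 24 h (horizontal axis) for each spot of the 28 genes with every spot at least 2-fold higher and of Actg2. Circles are spots of the array with LPS in Cy5, squares spots of the dye reversal with its sign turned, and bars the mean of both arrays; spots of Irgm2 lie within 1.83 to 2.11, those of Gpr165 spread from 2.03 to 4.83.

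Of the LPS receptor and its adaptors, 0 of 15 measured genes were higher and 0 were lower, beside 1.68% and 0.799% of all genes. Lists this small hold few or no calls at these shares, so a count of 0 or 1 here or below is no result about its list. The median of the 15 genes was 0.18, beside 0.02 over all genes. Tlr4, the receptor itself, read 0.46 on the forward and 1.58 on the reversed array, a mean of 1.02, but 1 of its 8 readings, at 5.66, set that mean and the other 7 reached from -0.54 to no more than 2-fold higher. Ly96, which presents LPS to Tlr4, read 0.21 and -0.21. Cd14, which hands LPS on, read -0.21 and 0.26. Myd88, the adaptor of the NF-kB branch, read 0.19 and 0.18. Each of these last 3 genes thus stayed within 0.3 of 0 on both arrays. Tlr2, the receptor for bacterial lipoproteins, was 2.18 on the forward array and 0.35 on the reversed one, and Tlr3, the receptor for double-stranded RNA, 2.83 and 0.25. Neither passed the rule, since the mean of the reversed array stayed under 1.5-fold. For Tlr3 that mean joined spots of 1.24 and -0.75.

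Among NF-kB subunits and inhibitors 2 of 21 genes were higher and 0 lower, beside 1.68% and 0.799% of all genes, with a median of 0.06. Tnip1 encodes a ubiquitin-binding protein that works with A20 to restrain NF-kB. It read 2.02 and 1.48 on the forward array's spots and 1.30 and 1.36 on the reversed array's, a mean of 1.54 ± 0.29 (SD, n = 2 arrays) or 2.91-fold. Ier3, an early response gene that protects against cell death, read 1.61 and 1.19 with all 4 spots at or above 0.94. All readings of both genes were positive. Nfkbia, the NF-kB inhibitor that NF-kB itself induces, read 0.13 and 0.27 and so was near 0 on both arrays. Tnfaip3, which encodes A20, read -1.82 and -0.26, below 0 on both arrays but past the rule on 1 of them.

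The 60 measured genes of 5 lists of interferon-induced genes held 16 genes higher by the 2-fold rule and 0 lower. Of all genes 1.68% were higher and 0.799% lower. On both arrays 37 of the 60 (61.7%) were above 0 and 5 below, beside 30.5% and 26% of all genes. Their median was 0.66 on the mean of both arrays, 0.95 on the forward and 0.48 on the reversed array, beside 0.02 over all genes. With centring on ribosomal protein and translation factor genes 14 of the 60 were higher. At 2-fold, the forward array alone gave 29 higher genes and the reversed array alone 16. The lists were drawn up with earlier results of these samples known, so that their direction is a description.

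**Figure D3:**
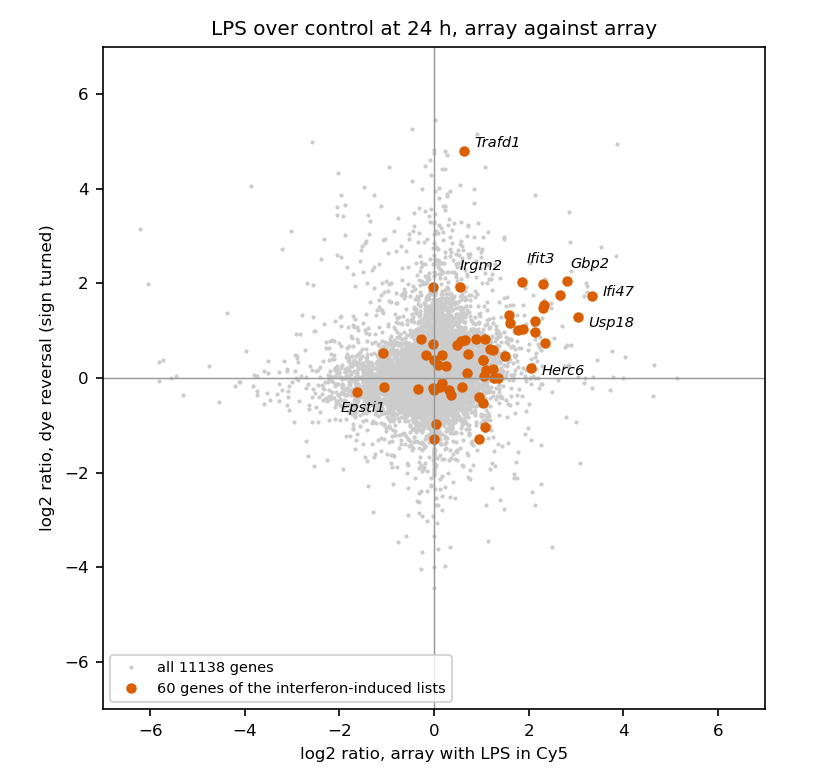
Log2 ratio of LPS over control at 24 h on the array with LPS in Cy5 (horizontal axis) against the dye reversal with its sign turned (vertical axis), for all 11138 genes in grey and the 60 genes of the interferon-induced lists in orange. Of the 60, 37 lie above 0 on both arrays, and Trafd1 (0.64 and 4.80) and Herc6 (2.04 and 0.21) lie far from the diagonal.

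The interferon-induced GTPases include guanylate-binding and immunity-related proteins that attack the membranes around intracellular microbes. Of this list 5 of 10 members were higher, beside 1.68% of all genes, and the median was 1.13. On both arrays 9 were above 0, beside 30.5% of all genes. Ifi47, of the immunity-related family, read 3.27 and 3.41 on the forward array and 1.59 and 1.90 on the reversed array, a mean of 2.54 ± 1.13 (SD, n = 2 arrays) or 5.82-fold. Gbp2, a guanylate-binding protein, read 2.76 and 2.85, then 1.98 and 2.12, a mean of 2.43 ± 0.53 or 5.38-fold. Irgm2, which restrains the other family members on the cell's own membranes, read 1.90, 1.83, 1.93 and 2.11. Of these genes Irgm2 was the one with the same height on both arrays, at 1.87 and 2.02. Igtp read 2.13 and 1.20, and Mx1, the influenza-resistance GTPase, 2.35 and 0.74. Irgm1 (1.24 and 0.20), Gbp3 (0.49 and 0.69) and Mx2 (0.70 and 0.11) were above 0 on both arrays without passing the rule. Gbp8, which was in no list and was picked out after its values were seen, read 1.88 and 1.54 with 4 spots between 1.46 and 2.29. Guanylate-binding and immunity-related GTPases are families of close copies, and a spot may bind more than 1 member.

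The IFIT proteins bind foreign RNA, and the ISG15 system is a ubiquitin-like modifier with its enzymes. This list had 5 of 11 members higher, beside 1.68% of all genes, and a median of 1.13. Of the 11 genes 10 were above 0 on both arrays, beside 30.5% of all genes. Rsad2, which encodes the antiviral enzyme viperin, read 2.97 and 2.37 on the forward array and 1.65 and 1.84 on the reversed array, a mean of 2.21 ± 0.66 (SD, n = 2 arrays) or 4.62-fold. Usp18, the protease that removes ISG15 and shuts off the interferon receptor, read 3.11 and 2.97, then 0.90 and 1.69, a mean of 2.17 ± 1.23. Ifit3 read 2.61, 2.01, 2.06 and 1.92, a mean of 2.15 ± 0.22 or 4.44-fold. For Ifit3 the 2 arrays lay closest of these 3 genes, and for Usp18 the forward array was far above the reversed one. Ifit2 read 2.32 and 1.55. Cmpk2, the nucleotide kinase next to Rsad2, read 1.58 and 1.34 on its arrays, but its 2 spots on the reversed array were 2.45 and 0.23. Isg15 itself read 1.09 and 0.18, and Ifit1 1.03 and 0.39, so that neither passed the rule although both were above 0 on each array. Herc6, the enzyme that attaches ISG15 in mice, read 2.04 and 0.21.

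Nucleic acid sensors and antiviral effectors had 3 of 13 members higher, beside 1.68% of all genes, and a median of 0.73. Ifih1, the sensor of long double-stranded RNA in the cytosol, read 2.14 and 0.98, a mean of 1.56 ± 0.82 (SD, n = 2 arrays). Samhd1, which depletes deoxynucleotides, read 1.88 and 1.04. Eif2ak2, the kinase PKR that stops translation on double-stranded RNA, read 1.60 and 1.16, and its 2 oligonucleotides gave means of 1.65 and 1.11. Each of these 3 genes had every spot above 0. Trex1, a DNase, read 1.25 and 0.59, short of the rule in its mean. In the p200 family of DNA-binding proteins, a cluster of close copies, 1 of 4 members was higher: Ifi203 at 1.78 and 1.02. The median of that family was 0.79. Of interferon-induced small and membrane proteins 2 of 22 were higher, beside 1.68% of all genes, and the median was 0.19. Ifi35 read 1.93 and 2.67, then 1.53 and 1.44, a mean of 1.89 ± 0.58 or 3.71-fold. Trafd1, an inhibitor of toll-like receptor signals, had the largest mean of the list at 2.72, but its spots were 0.00 and 1.28 on the forward array and 4.21 and 5.39 on the reversed array. Epsti1, at -1.63 and -0.29, had the lowest mean of the 60 genes.

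Of interferons and their receptors 0 of 14 were higher and 1 was lower, with a median of 0.09. Ifnb1, interferon beta, read -0.21 and 1.30, in opposite directions. Ifna9 was the lower gene, with spots of -0.71 and -0.80 on the forward array and -2.03 and -4.91 on the reversed array. Its spots on the reversed array were far apart, and alpha interferon genes are near-identical copies. Interferon regulatory factors and STATs, which carry the signal to the nucleus, had 2 of 17 members higher and 0 lower. Of all genes 1.68% were higher and 0.799% lower. The median of these 17 genes was 0.21. Stat2, a subunit of the interferon-activated complex, read 1.52, 1.54, 1.26 and 1.32, a mean of 1.41 ± 0.17 (SD, n = 2 arrays) or 2.65-fold. Irf7, the factor that amplifies interferon production, read 1.35 and 0.99 with 4 spots between 0.95 and 1.45. The 4 readings of each gene lay close together. Irf1 was at 0.07 and 0.03, and Irf2 at -2.44 and -0.39. Of SOCS and PIAS inhibitors of this pathway 0 of 12 were higher or lower by the rule, and 6 (50%) were below 0 on both arrays, beside 26% of all genes.

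The DNA before the start site is shown for 5 interferon-induced genes, for Stat2 and for Saa3, all of them higher at 24 h and with a match to the letters searched. The windows are 250 bases before to 50 bases after the start of each gene in RefSeq on GRCm38.p6, and 8849 of the 11138 genes had one. The interferon-stimulated response element (ISRE) is the binding site of the complex with Stat2 and Irf9 and of interferon regulatory factors, and was searched on both strands as GAAA and GAAA with any 2 bases between them. The gamma-activated site (GAS), bound by STAT dimers, was searched as TTC and GAA with any 3 bases between them, which can overlap an ISRE. Capitals below mark matches to these letters, and each sequence reads 5′ to 3′ on the strand of its gene.
Rsad2, chr12:26456533-26456602, minus strand: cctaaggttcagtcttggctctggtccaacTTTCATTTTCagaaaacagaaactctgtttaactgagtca
Ifit3, chr19:34583343-34583446, plus strand: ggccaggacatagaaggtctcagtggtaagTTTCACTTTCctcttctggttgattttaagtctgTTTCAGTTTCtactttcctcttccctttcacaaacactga
Gbp2, chr3:142620574-142620643, plus strand: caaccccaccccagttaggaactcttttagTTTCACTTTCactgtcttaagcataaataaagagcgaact
Irgm2, chr11:58214872-58214952, plus strand: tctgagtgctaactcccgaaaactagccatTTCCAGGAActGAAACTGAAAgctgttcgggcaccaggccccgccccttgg
Igtp, chr11:58199481-58199555, plus strand: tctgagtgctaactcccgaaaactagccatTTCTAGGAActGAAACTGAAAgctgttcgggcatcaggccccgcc
Stat2, chr10:128270248-128270315, plus strand: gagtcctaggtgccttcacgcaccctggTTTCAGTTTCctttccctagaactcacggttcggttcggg
Saa3, chr7:46715762-46715831, minus strand: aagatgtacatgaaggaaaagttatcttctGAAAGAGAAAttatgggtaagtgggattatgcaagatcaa

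Ifit3 held 2 ISRE matches, and Irgm2 and Igtp held a GAS match directly before an ISRE match. The printed stretches of these 2 neighbouring genes were the same at 73 of 75 bases. An ISRE match stood in 341 of all 8849 windows (3.85%). Among the interferon-list genes higher at 24 h it stood in 8 of 14 windows (57.1%): Eif2ak2, Gbp2, Ifi203, Ifih1, Ifit3, Igtp, Irgm2 and Rsad2. Over the 44 interferon-list genes with a window, called or not, the share was 40.9%. In the 130 windows of higher genes outside these lists it was 4.62%, with Stat2, Saa3 and H2-T22 among the 6 genes. In lower genes it was 6 of 70 windows (8.57%), Ifna9 and Foxa1 included. The GAS letters stood in 6 of the 14 windows (42.9%) and in 8.55% of all. NF-kB's kappa-B site, searched as GGG and TTTCC with any 2 bases between them, stood in 0 of the 14, in 2.78% of all higher genes, with Casp4 among them, and in 1.89% of all genes. A match is a run of letters and does not show that a factor bound there, and the absence of a match says only that these letters were not in this window.

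Chemokines had 3 of 35 members higher and 0 lower, beside 1.68% and 0.799% of all genes, and a median of 0.17. Ccl2, the main attractant of monocytes, read 1.69 and 2.95 on the forward array and 1.64 and 1.66 on the reversed array, a mean of 1.98 ± 0.48 (SD, n = 2 arrays) or 3.95-fold. Its neighbour Ccl7, which attracts the same cells, read 2.27 and 0.59. The second value only just met 1.5-fold and came from spots of 0.21 and 0.96. Cxcl16, a membrane-bound chemokine, read 1.36 and 0.68, and 1 of its 4 spots was below 0 at -0.15. Of these 3 chemokines only Ccl2 was at least 2-fold in every spot. Several chemokines typical of LPS-treated endothelium were near 0: Cxcl1, which attracts neutrophils, at 0.36 and -0.01, and Cxcl10, an interferon-induced attractant of T cells, at -0.06 and 0.45. Ccl5 turned with the dye, at -0.47 and 0.89.

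Of interleukins and colony-stimulating factors 1 of 32 was higher and 0 lower, beside 1.68% and 0.799% of all genes, and the median was -0.07. That gene was Il33, a nuclear cytokine that dying endothelial cells release as an alarm signal. It read 3.11 and 3.24 on the forward array and 1.90 and 1.55 on the reversed array, a mean of 2.45 ± 1.03 (SD, n = 2 arrays) or 5.47-fold. Il6 read -1.30 and 0.30, with opposite signs on the arrays. Of the TNF superfamily and its receptors 1 of 30 was lower, Tnfrsf11a, at -1.47 and -0.64, but 2 of its 8 spot readings were above 0. Cytokine receptors had 0 of 29 past the rule, and on both arrays 14 (48.3%) were above 0 and 8 (27.6%) below, beside 30.5% and 26% of all genes.

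Leukocyte adhesion genes had 1 of 24 members higher and 0 lower, beside 1.68% and 0.799% of all genes, and a median of 0.10. Vcam1, which binds the integrin of monocytes and lymphocytes, read 2.24 and 1.56 on the forward array and 1.30 and 1.35 on the reversed array, a mean of 1.61 ± 0.40 (SD, n = 2 arrays) or 3.06-fold. The endothelial selectins, which catch rolling leukocytes, were near 0. Sele read -0.36 and -0.19, and Selp 0.14 and 0.28. Icam1 was not analysed here.

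Inflammatory and apoptotic caspases had 2 of 17 members higher and 0 lower, beside 1.68% and 0.799% of all genes. Their median was 0.48, beside 0.02 over all genes. Casp4, the caspase-11 that binds LPS inside the cell, read 2.25 and 2.21 on the forward array and 0.82 and 0.90 on the reversed array, a mean of 1.55 ± 0.97 (SD, n = 2 arrays). Casp1, its neighbour in the genome and the enzyme that matures interleukin 1 beta, read 1.16 and 1.26. The duplicate spots of Casp4 were close on each array while the arrays differed, and the arrays agreed for Casp1. Casp8 read 0.57 and 1.72, just short of 1.5-fold on the forward array.

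Class I antigen presentation had 1 of 24 members higher and 1 lower, with a median of 0.14. H2-T22, a nonclassical class I molecule, read 1.31 and 0.84, and its 3 oligonucleotides gave means of 0.42 for one and over 2-fold for the other 2. H2-Q10, a secreted class I molecule of the liver, read -2.09 and -0.61. H2-T9, in no list, read 1.86, 2.05, 1.13 and 1.15. B2m, the shared light chain, read -0.18 and -1.29. Of the 24 members 12 (50%) were above 0 on both arrays and 2 (8.33%) below, beside 30.5% and 26% of all genes, and class I genes are close copies that a spot may not separate.

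Secreted acute phase proteins had 1 of 22 members higher, 0 lower and a median of 0.03. That member was Saa3, serum amyloid A of extrahepatic tissues, which binds lipids in inflammation. Its 8 readings lay between 1.31 and 3.99, its arrays read 3.23 and 1.95, and its 2 oligonucleotides gave means of 2.20 and 2.98, in all 2.59 ± 0.91 (SD, n = 2 arrays) or 6.02-fold. The pseudogene Saa-ps read 1.57 and 1.22. The gene next to Saa3 among those measured, Saal1, read 0.92 and 3.28 and was picked out after its values were seen. Saa copies are alike in sequence, and a spot for one may bind another. Ptx3, a soluble pattern receptor made by endothelium, had spots of -2.77, 0.00, 1.16 and -1.81 and gave no readable direction. Of complement genes 0 of 25 were called, beside 2.48% of all genes. On both arrays 9 (36%) were below 0 and 4 (16%) above, beside 26% and 30.5% of all genes.

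Of genes for metal binding and storage, Mt2 and Fth1 were at least 2-fold higher in every spot, and no other gene of their lists was called. Mt2, a metallothionein that binds zinc and copper, read 3.47 and 3.60 on the forward array and 2.76 and 2.76 on the reversed array, a mean of 3.15 ± 0.55 (SD, n = 2 arrays) or 8.87-fold. It was 1 of 13 metallothioneins and zinc transporters past the rule, and the median of that list was 0.17. Fth1, the heavy chain of the iron store ferritin, read 2.13 and 3.22, then 1.45 and 1.88, a mean of 2.17 ± 0.71 or 4.49-fold. Of the 15 genes of iron and haem it was the only one higher, and the median was -0.12. Slc40a1, the iron exporter, read -0.41 and -1.24. Of 27 oxidative stress enzymes 0 were called: Keap1 read 1.23 and 0.55 and Nox4 -0.84 and -0.87.

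Matrix proteases and their inhibitors had 2 of 27 members higher, beside 1.68% of all genes, and a median of 0.08. Timp1, a secreted inhibitor of matrix metalloproteinases, was read by 2 oligonucleotides with means of 2.70 and 3.72. On the forward array its 4 spots lay between 3.58 and 4.28, and on the reversed array they were 1.62, 1.66, 3.40 and 3.64. The mean was 3.21 ± 0.90 (SD, n = 2 arrays) or 9.28-fold, and on the reversed array the spots of the 2 oligonucleotides did not overlap. Adam9, a membrane protease, read 1.40 and 0.93. Among 39 collagens and matrix proteins Sparc, a collagen-binding protein, was the only one higher, at 1.32 and 1.04, and the median was -0.08.

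**Figure D4:**
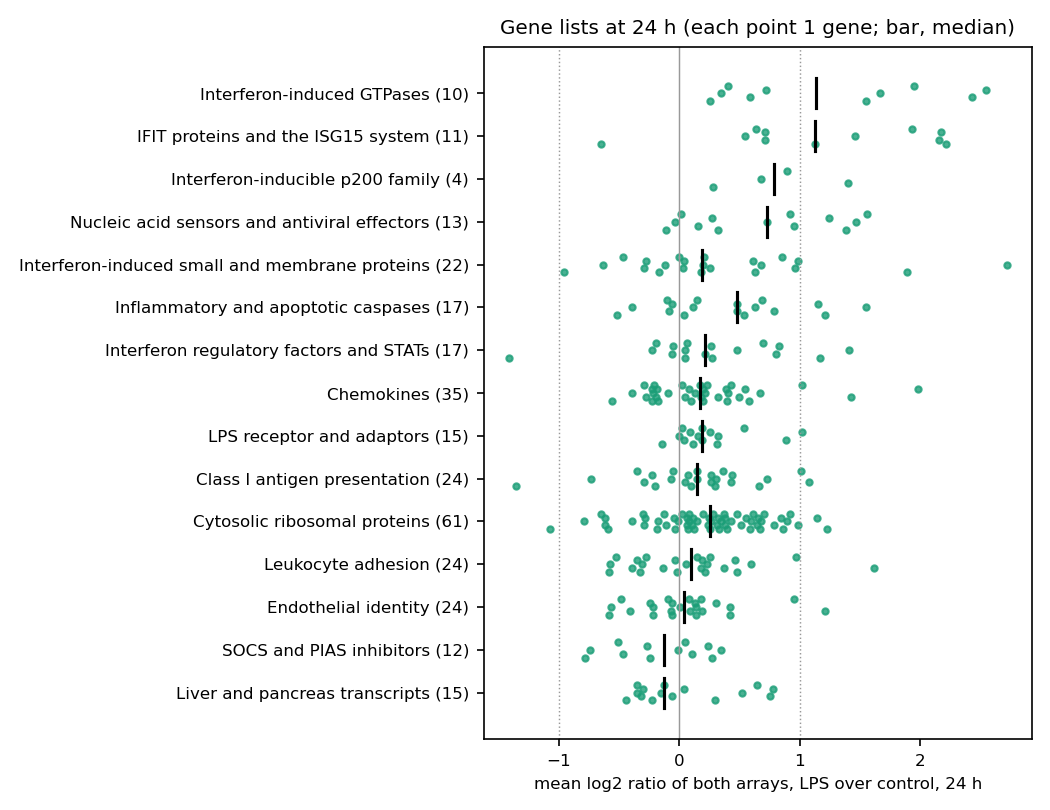
Mean log2 ratio of LPS over control at 24 h (horizontal axis) of each measured gene in 15 of the lists, with the number of genes in brackets; points are genes, bars medians, and dotted lines mark 2-fold. Medians of these 15 run from 1.13 for the GTPases and for the IFIT and ISG15 list to -0.13 for SOCS and PIAS inhibitors. Over all genes the median was 0.02. The lowest median of the 61 lists, -0.23 for vascular tone, is not shown.

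Cytosolic ribosomal proteins, the most numerous list, had 2 of 61 members higher and 34 (55.7%) above 0 on both arrays, beside 1.68% and 30.5% of all genes, with a median of 0.25. Rpl12 read 1.40 and 0.88, and Rplp1 1.81 and 0.64. Respiratory chain and ATP synthase subunits had 0 of 47 past the rule and 25 (53.2%) above 0 on both arrays, against the same shares of all genes, with a median of 0.23. Translation factors had 0 of 24 past the rule and a median of 0.26. These small shifts shared by many genes are measured against a 0 set at the median of all spots on each array. With 0 set on the ribosomal protein and translation factor genes, the median of the respiratory chain list was -0.03. Psmd8, of the proteasome lid, was the only higher gene of 32 proteasome genes, at 1.48 and 0.98. Hspd1, the mitochondrial chaperonin, read 1.24 and 1.26 with 1 spot exactly at 2-fold and the other 3 between 1.10 and 1.49, and was the only higher one of 27 heat shock proteins and chaperonins. Glycolysis (16 genes), cyclins and their kinases (36) and immediate early genes (26) had no member past the rule, beside 2.48% of all genes called. Cdc45, part of the replication helicase, was lower at -1.77 and -0.67, the 1 call among 30 DNA replication genes.

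Actin cytoskeleton genes gave the one gene that was 2-fold lower in every spot. Actg2 read -2.73 and -2.62 on the forward array and -1.55 and -1.74 on the reversed array, a mean of -2.16 ± 0.73 (SD, n = 2 arrays) or 4.47-fold lower. Arpc5, a subunit of the complex that branches actin filaments, was higher at 2.53 and 0.85. Actb was at 0.32 and 0.01. Actn1 read 0.17 and 4.43, a large mean made by 1 array. The 38 genes of this list had a median of 0.14.

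Of the markers of endothelial identity 0 of 24 were higher or lower, beside 2.48% of all genes. On both arrays 7 (29.2%) were above 0 and 7 below, near the 30.5% and 26% of all genes, and the median was 0.04. Cdh5, the cadherin of endothelial junctions, read -0.17 and 0.05, and Kdr, the main receptor for VEGF, -0.12 and -0.01. Tek, the angiopoietin receptor, read -0.11 and -0.09, Pecam1 -0.03 and 0.39 and Nos3 -0.08 and 0.24. None of these 5 reached 1.5-fold on either array, but means in the list ran from -0.585 to 1.21, and other members had uneven spots. Sox18 read 0.60 and 0.40 on the forward array and 0.18 and 3.66 on the reversed array. Clec14a read -2.16 and 0.07, then 0.80 and 5.09, and Esam -1.08 and -0.26, then -0.20 and -0.80. Among markers of other cells that a culture could hold, 1 of 29 leukocyte genes was higher, Coro1a at 0.94 and 1.15, and 1 of 18 mural and fibroblast genes, Pdgfra at 1.53 and 0.76. Epithelial markers (13 genes) and lymphatic endothelial markers (6 genes) had no call. Lists of transcripts foreign to endothelium had 0 higher and 1 lower of 27 neuronal, 0 and 1 of 24 germ cell, and no calls among 28 muscle and 15 liver and pancreas genes.

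The lists held 1399 of the 11138 genes. Of the 187 higher genes 45 and of the 89 lower genes 9 were in any list, so most calls, like most genes, fell outside. Ttpal, a relative of the vitamin E transfer protein, had the highest mean of all genes: 4.39 and 3.33 on the forward array and 5.67 and 4.23 on the reversed array, 4.40 ± 0.77 (SD, n = 2 arrays) or 21.2-fold. Gpr165, an orphan receptor, read 2.85 and 3.52. Flicr, a noncoding RNA of the Foxp3 locus, read 3.33 and 2.30. All 4 spots of each of these 3 genes were at least 2-fold. Atp6v1c2, a subunit of the proton pump of acidic vesicles, had a mean of 2.61 ± 0.86, and Thoc3, of the complex that exports mRNA, read 2.90 and 2.26. Slc22a21, a carnitine transporter, read 1.54 and 1.72, and Pdcd2l 2.48 and 1.48. Rab32, a GTPase of lysosome-related vesicles, read 2.70 and 1.11.

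Several of the largest means rested on single spots. Bcl7a, of a chromatin remodelling complex, had 2.87 on both arrays, but its spots were 4.87 and 0.88 on the forward array and 0.29 and 5.45 on the reversed array. Ppargc1a, the coactivator of mitochondrial genes, had spots of 0.51, 1.18, 0.90 and 7.11. Fam186a owed its mean of 2.27 to 1 spot at 7.40. For Bcl7a the 2 array means were equal although the duplicates on each array were far apart. Wrap73 (0.19, 6.28, 1.48 and 2.16) and Ccdc172 (4.46, -0.20, 6.36 and 1.40), picked out after their values were seen, showed the same spread. Tmem121b, likewise picked out later, read 0.00 and 1.81 on the forward array against 5.15 and 5.17 on the reversed array. Prr13 was read by 2 oligonucleotides with means of 1.04 and 3.43. In all, 57 of the 187 higher and 39 of the 89 lower genes had at least 1 spot that was not on the side of the call.

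Of the 89 lower genes 50 had every spot below 0, and some of these had uneven spots. Foxa1, a pioneer transcription factor of endoderm, read -2.48 and -2.42 on the forward array and -0.96 and -0.88 on the reversed array, a mean of -1.68 ± 1.08 (SD, n = 2 arrays) or 3.21-fold lower. Col2a1, the collagen of cartilage, read -2.41 and -0.72, and Heyl, a Notch target chosen after its values were seen, -1.72 and -1.05. In these 3 genes the 4 spots were all at or below -0.70. Ucn3, a peptide hormone, had the lowest mean of the genes with every spot below 0, at -2.19, with spots from -0.46 to -4.60. Rgl3 (-0.24, -5.19, -0.79 and -1.88), Tmem80 (-1.74, -0.85, -5.37 and -0.30) and Kcnip2 (-4.20, -0.33, -1.86 and -1.58) held 1 spot far below the rest. Sohlh2, a germ cell factor, had -1.92 on both arrays from spots of -2.97, -0.86, -0.15 and -3.69. Popdc2 read -0.72, -2.64, -0.77 and -2.23, while Naa38 and the uncharacterised 1810049H19Rik had means of -1.83 and -1.55 and each held 1 spot short of 1.5-fold. Ern1, a stress sensor of the endoplasmic reticulum, was lower at -0.79 and -1.89, the 1 call among 18 genes of that response. Hoxb3, lower at -2.96 and -0.92, was the 1 call among 30 Hox genes, with 1 spot above 0 at 1.41. Of all genes 0.799% were lower.

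Some higher genes lay side by side. Ordered along the chromosomes by RefSeq, the measured genes formed 11048 adjacent pairs, and in 8 both genes were higher: Igtp with Irgm2, Ccl2 with Ccl7, Rsad2 with Cmpk2, Ifit2 with Ifit3, Casp1 with Casp4, Saal1 with Saa3, Dsn1 with Samhd1 and Chic2 with Pdgfra. No pair had both genes lower. Of the 11070 genes with a place on a chromosome 185 were higher, and whether 8 pairs exceed what unlinked genes would give was not tested. The Igtp, Ifit, Ccl and Casp pairs are members of one family each. In these a shared binding of spots cannot be told apart from a shared change.

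The 4 h arrays are given beside the 24 h values without a test, since whether the control RNA was shared between times is not stated; the dose of 50 ng/ml is labelled on 1 of the 4 h arrays and missing on the other. Calls were more frequent at 4 h, with 973 genes (8.74%) higher and 643 (5.77%) lower. Of the 28 genes with every spot 2-fold higher at 24 h, 11 were also higher by the 2-fold rule at 4 h and 1 was lower. Irgm2 read 2.80 and 2.14 at 4 h against 1.87 and 2.02 at 24 h, and Hspd1 2.33 and 2.27 against 1.24 and 1.26. All spots of these 2 genes were at least 2-fold higher at 4 h. Fth1 had array means of 2.36 and 2.56 at 4 h, but its forward spots there were -0.70 and 5.43. Rsad2 had 4 h values of 1.25 and 1.41, and Il33 of 1.54 and 1.49, below their 24 h means. Mt2 (0.13 and -0.67), Ccl2 (0.39 and 0.34), Vcam1 (0.80 and 0.08), Ifit3 (0.12 and 0.67) and Gbp2 (0.72 and 0.75) were below 2-fold on both 4 h arrays. The 1 gene lower at 4 h was Tnip1, at -1.82 and -1.81. Thoc3, at -6.84 and 0.79, had no readable direction there. The ribosomal proteins had a median of 2.29 at 4 h with 37 of 61 higher, beside 0.25 and 2 at 24 h, and the interferon-induced lists 0.53 with 16 of 60 higher, beside 0.66 and 16.

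**Figure D5:**
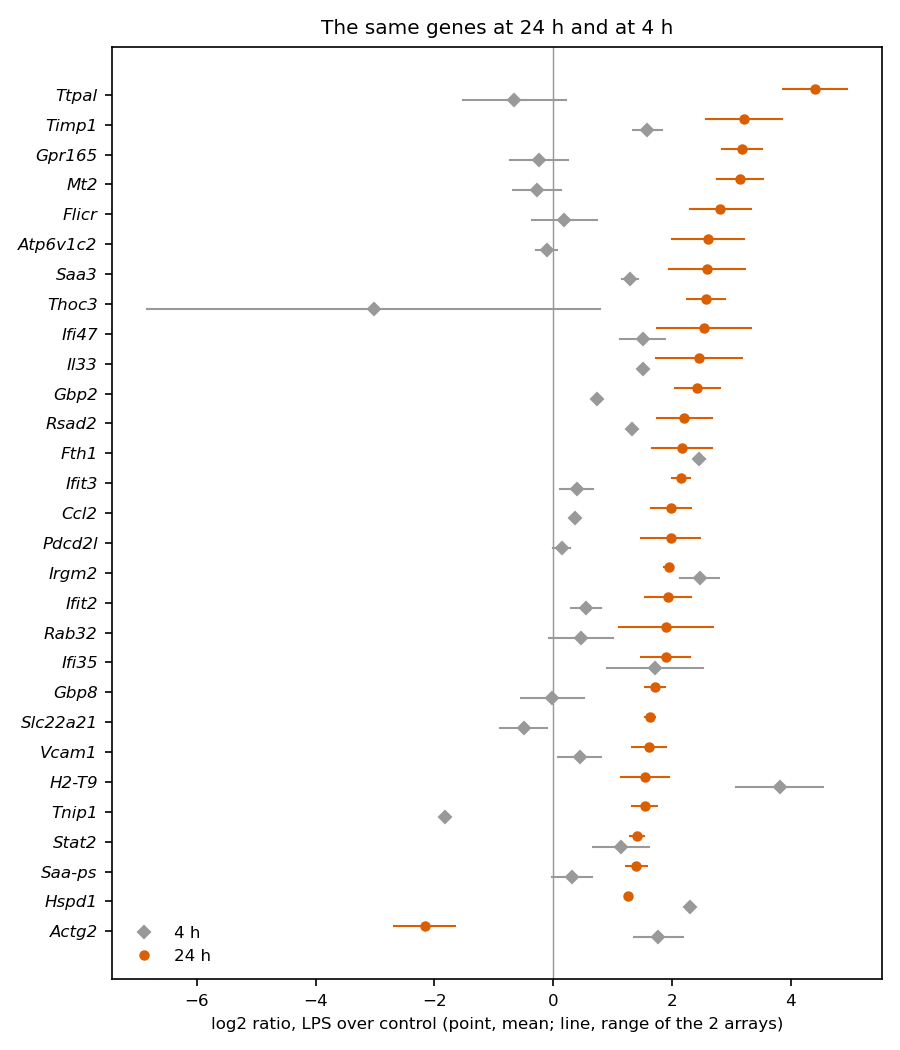
Log2 ratio of LPS over control (horizontal axis) at 24 h (orange) and at 4 h (grey) for the 28 genes with every spot at least 2-fold higher at 24 h and for Actg2; points are means of 2 arrays and lines run from one array to the other. Actg2 (-2.16 at 24 h, 1.77 at 4 h) and Tnip1 (1.54 and -1.81) lie on opposite sides of 0, and the 4 h line of Thoc3 spans -6.84 to 0.79.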

How the data were processed

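Values came from the deposited table of the series, in which each array is 1 column of 32448 spots. Per the labels, amplified RNA of LPS-treated and control SVEC cells carried the dyes Cy3 and Cy5 on arrays of Operon version 1 long oligonucleotides. The deposited values behave as log2 ratios of Cy5 over Cy3 with a median of 0 on each array; for the scanner, background correction and normalization no label or header gives a method, and spot intensities were not used here.

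Dye-reversal arrays were multiplied by -1 and every array was centred on its median. Spots were named through the platform annotation: 24344 had 1 gene symbol and were averaged per gene, 98 had several and 8006 were not named, and both latter kinds were left out. Of named spots 98.9% had a gene identifier in the RefSeq table. The 2 arrays of a time count as 1 replicate, so no test was run; the SD is over arrays. Named genes are the 20 highest and 12 lowest means past the 2-fold rule with every spot on one side of 0, list members past the rule, the 3 largest other members of each list, a set of LPS-response, endothelial and housekeeping genes where measured, and later additions identified as such. The genes described and the 61 lists were chosen with earlier results of these data known. Alternatives covered centring, scaling, quantile normalization, exact zeros, medians over spots, fold rules, spot agreement and each array left out. Alternatives chosen after seeing the data were agreement of every spot at 1.5-fold or 2-fold and centring on ribosomal protein and translation factor genes. Motifs were matched in RefSeq windows of GRCm38.p6. Python 3.11, pandas 2.3.3, numpy 2.4.6 and matplotlib 3.10.9 were used.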

Additional observations from a re-analysis of the deposited data

Results flagged for a closer look

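In 5 named genes the mean of each 24 h array was at least 1.5-fold one way and that of each 4 h array at least 1.5-fold the other way; the difference between the times was not tested. Actg2, the smooth muscle gamma actin, had a mean log2 ratio of -2.16 at 24 h (-2.67 and -1.65) and of 1.77 at 4 h (2.19 and 1.36). Cdc45, of the replication helicase, had -1.22 at 24 h (-1.77 and -0.67) and 1.39 at 4 h (1.38 and 1.40). Ifna9, an alpha interferon, had -2.11 at 24 h (-0.76 and -3.47) and 2.61 at 4 h (3.07 and 2.15), where the duplicates on the reversed array were -0.54 and 4.83. Naa38, a subunit of an N-terminal acetyltransferase, had -1.83 at 24 h (-1.39 and -2.28) and 1.33 at 4 h (1.70 and 0.96). The 4 h mean of Naa38 rested on 1 spot per array, with spots of 0.00 and 3.39 on the forward and -1.04 and 2.96 on the reversed array. Tnip1, the partner of A20, was the one with the 24 h mean above 0, at 1.54 (1.75 and 1.33) against -1.81 at 4 h (-1.82 and -1.81).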

How the results depend on the processing

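The 187 higher, 89 lower, 189 dye-following and 16 interferon-list genes were recounted under each alternative. Each array already had a deposited median of 0, so values as deposited returned the same counts and were no separate check. Scaling to one spread, quantile normalization, exact zeros taken as not measured and the median over spots kept all 4 counts within 1.5 times. Demanding every spot on one side of 0 left 50 lower genes. Each array at least 2-fold gave 85 higher, 28 lower and 108 dye-following genes, a mean of at least 3-fold 73, 15 and 79 with 10 of the interferon lists, and the mean alone 388, 280 and 530. Every spot at 1.5-fold gave 105, 55 and 56, and every spot at 2-fold 28, 1 and 15 with 7 of the interferon lists. Centring on ribosomal protein and translation factor genes gave 87 higher and 272 lower genes. With one array left out, the counts ranged from 502 to 771 higher, 310 to 818 lower and 16 to 29 in the interferon lists. No named gene past the rule changed sign. With one array left out, or with that centring and its shift of 0.26, none could, because the rule demanded 1.5-fold on each array. Values moved by more than 1 SD in 61 of 281 genes under the ribosomal protein and translation factor centring. They did so in 7 with zeros removed, in 3 with medians over spots and in 2 after quantile normalization. The cause of these differences was not tested. No paired analysis was possible because no test was run on 1 RNA pair. Signal over background cannot be judged from ratios.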

Other observations

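A few spots without a gene name also held ratios that repeated across dyes. Of 4003 neighbouring pairs of such spots, 3 were at least 2-fold higher with LPS in every reading at 24 h and 2 were lower. The higher pairs made up 0.0749% of the pairs, beside 0.251% of named genes. Under the same rule 0.00898% of named genes were lower, and 0.0449% and 0.0898% followed Cy5 and Cy3. Some means were large on the strength of 1 array. Pkp4, a junction protein, read 0.28 on the forward and 4.72 on the reversed array, Ndufb3, of the respiratory chain, 3.05 and 0.03, and Eef1d, a translation elongation factor, -0.12 and 3.43. None of these 3 genes was counted as higher.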
